A study of Mus musculus with 4 samples.

Results

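The cytosolic ribosome, the machine that translates nuclear-encoded mRNAs, was followed through the transcripts of its proteins in mouse osteoblasts given insulin. Members were all genes with 1 annotated symbol that begins with Rpl or Rps followed by a digit, together with Rplp0, Rplp1, Rplp2 and Rpsa where present, and without the kinases named Rps6k. This gave 51 of 18193 named genes, each read by its brightest probe set over 4 arrays. The symbols covered 43 ribosomal protein genes, of which 21 belong to the small and 22 to the large subunit. The other 8 were the paralogues Rps4l, Rpl39l, Rpl22l1, Rps27l, Rpl7l1 and Rpl3l, the pseudogene Rps15a-ps6, and Rps19bp1, which encodes a protein that binds the small-subunit protein Rps19. Both subunits are far from complete, because 31 further symbols of the family stood only on probe sets that name several genes and were not counted as members.

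A ribosome joins a small subunit, which reads the mRNA, to a large subunit, which forms the peptide bond, and most ribosomal proteins are needed in equal numbers. Insulin and IGF-1 act through the kinase mTOR, and ribosomal protein mRNAs are a classic target because many begin with a pyrimidine run, the TOP tract, that ties their translation to growth signals. Their control is mainly at translation, so an array of total RNA measures amounts of mRNA and not how much of it is on ribosomes. Several ribosomal proteins have paralogues used in particular tissues, such as Rpl39l in the testis and Rpl3l in striated muscle.

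The cells were osteoblasts that lack the IGF-1 receptor per the growth protocol, whereas the genotype entry of all 4 samples reads IGF-1 null, and the sources used here do not settle which is meant. All were grown to confluence. The samples were a control at 0 h and cells that received 10 nM insulin after serum starvation, for 6, 12 or 24 h, with 1 array in each group. No control without insulin at the later times was analysed here, so insulin and time in culture cannot be told apart. Whether the 0 h cells came from the same culture as the insulin-treated cells is not given in the labels, so a difference between cultures cannot be told apart from them either. With 1 array per group there is no test, and no p-value or standard error is given. Differences are log2 intensity on an insulin array minus that on the 0 h array, and counts use at least 1.5-fold.

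The 0 h array stood apart from the 3 insulin arrays across the whole table. Osteoblast markers were present, with the collagen gene Col1a1 at 13802 and 21001, 23827 and 23755 at 0, 6, 12 and 24 h, but at 0 h Sp7 and Alpl, markers of committed osteoblasts, were at 60.8 and 61.5, below the median probe set intensity of 65.3. Of 7 osteoblast markers found 5 were at least 1.5-fold higher at all 3 times, and so were 5 of 6 macrophage markers, 2 of 4 adipocyte markers, 1 of 6 skeletal muscle markers (Acta1) and 1 of 4 endothelial markers (Tek). The summed intensity of the osteoblast list was 53403 at 0 h and from 79361.5 to 90709 on the insulin arrays. The summed intensity of the macrophage list was 533 at 0 h and from 4766 to 6729 on the insulin arrays, and that of the adipocyte list was 933 and from 2520 to 5195. In the adipocyte list Adipoq and Fabp4 were higher on each insulin array. Pparg was lower on each, at 223, 107, 184 and 196 at 0, 6, 12 and 24 h. The summed intensity of the muscle list was 309 at 0 h and from 1790 to 1956 on the insulin arrays. That rise was in Acta1, at 130 at 0 h and 1712, 1802 and 1626 at 6, 12 and 24 h. Myh1, Ckm and Myog, at 70.7 or less on every array, were lower on each insulin array, and Myh2 and Tnnt3 went both ways. The summed intensity of the endothelial list was 193 at 0 h and from 192 to 225 on the insulin arrays. The macrophage marker Itgam, the adipocyte marker Lep and the muscle marker Myh2 stayed below the median probe set intensity on all 4 arrays. The Y-linked gene Eif2s3y was at 12.2 at 0 h and from 295 to 326 on the insulin arrays, and Xist was at 109 and from 1278 to 1636. In such bulk RNA, fewer cells of a type and less RNA per cell cannot be told apart, and the part of these differences in the results that follow was not tested.

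The ribosomal protein genes were among the brightest on every array. Of the 50 brightest named genes 27 were members at 0 h and 25, 24 and 25 at 6, 12 and 24 h, and of the 100 brightest 34, 33, 32 and 32. The mean intensity of 34 of the 43 ribosomal protein genes, 17 of each subunit, was at least 10000. Rpl41, a very short basic protein of the large subunit, was the brightest member, at 26119, 25283, 25229.9 and 26672 at 0, 6, 12 and 24 h. Rpl37a, a zinc finger protein of the large subunit, followed at 22971, 25674, 24787 and 25100.5. The small-subunit genes Rps2, Rps29, Rps28 and Rps20 came next, with means over the arrays of 21465, 20260.3, 19861 and 19755. Intensities of different probe sets depend on their probes and are not a scale of abundance between genes. The highest intensity on an array was 31292 at 0 h and from 27644 to 27727 on the insulin arrays, and whether signals this bright are compressed was not tested.

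**Figure D1:**
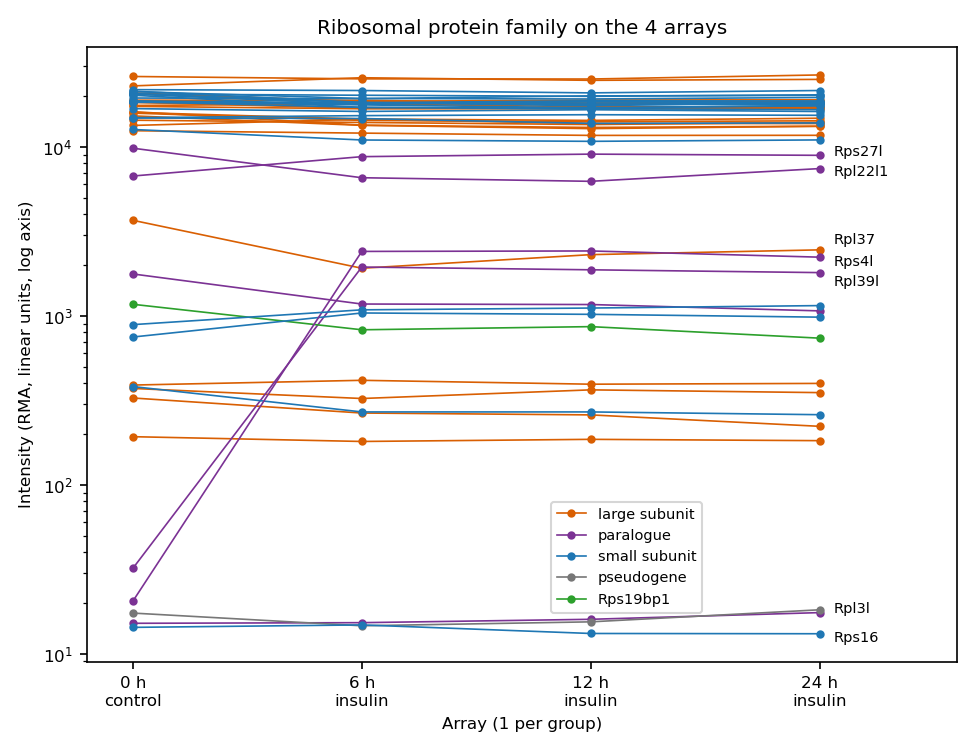
Intensity of the 51 members (log axis) on the 4 arrays, 1 line per gene, coloured by subunit or class. A dense band of 34 genes lies above 10000 and runs nearly flat, while Rps4l and Rpl39l lie at 20.5 and 32.0 at 0 h and at no less than 1803 on every insulin array.

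The 9 ribosomal protein genes below 10000 were Rpl12, Rpl14, Rpl27a, Rpl37, Rpl39, Rps16, Rps25, Rps27 and Rps6. For all 9, another probe set that names several genes including the same symbol had a mean of at least 10000. Rps16 was at 14.3, 14.8, 13.2 and 13.1 on its single-symbol probe set, while a probe set naming it with other genes had a mean of 21654. Since those probe sets also name other genes, whether their signal came from these 9 was not tested. The probe sets of 48 of the 51 members reached the median probe set intensity on average, and those of Rpl3l, Rps15a-ps6 and Rps16 did not. Rps4l and Rpl39l passed it through the insulin arrays only.

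As a family the members differed little from the 0 h array. The median difference over the 51 was -0.05, -0.09 and -0.08 at 6, 12 and 24 h, and over all 18193 named genes it was -0.03, -0.03 and -0.05. At 6 h 2 members were at least 1.5-fold higher, where 13.2% of all named genes were, and 2 were lower, where 9.36% were. At 12 h 2 were higher and 3 lower, beside 14.8% and 9.97% of all named genes. At 24 h 2 were higher and 2 lower, beside 14.0% and 9.90%. The 2 that were higher at all 3 times, beside 11.9% of all named genes, were the paralogues Rps4l and Rpl39l, and the 1 that was lower at all 3 times, beside 7.58%, was the paralogue Rpl7l1. No gene for a ribosomal protein proper was higher by 1.5-fold at any time. The only one lower was Rpl37, at 6 and 12 h, on its single-symbol probe set.

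The differences lay below 0 more often than above it. Of the 51 members 34 were below 0 at all 3 times, where 43.6% of all named genes were, and 11 were above. The share of all named genes above 0 at all 3 times was not computed. Among the 34 brightest ribosomal protein genes 26 were below 0 at all 3 times and 4 above, beside 27.0% of the 89 other genes with a mean intensity of at least 10000 that were below 0. That mean includes the insulin arrays, so genes low at 0 h could enter the 89. These 3 differences share the same 0 h array, so a sign repeated at all 3 times is not repeated evidence. Of the 51 members 40 (78.4%) lay within 0.32 log2 of the 0 h array at every time. So did 963 (39.1%) of 2465 other genes at least as bright as the lower quartile of the members. Those 2465 were chosen by a mean over the same 4 arrays, so a gene could enter through the insulin arrays. The share over all named genes was not computed.

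The differences of the bright members lay close together. All 34 bright ribosomal protein genes lay within 0.32 log2 of the 0 h array at every time, and so did 55 of the 89 other genes with a mean of at least 10000. None of the 34 was at least 1.5-fold higher or lower, while among those 89 other genes 13.5%, 14.6% and 13.5% were higher at 6, 12 and 24 h and 4.49% were lower at each time. At all 3 times 13.5% of the 89 were higher and 3.37% lower. These 89 were chosen by a mean over 4 arrays, 3 of them insulin arrays, so a gene could enter through the insulin arrays. The lowest intensity among them was 194 at 0 h and 7963, 9047 and 8851 at 6, 12 and 24 h. Their share of higher genes and their spread can partly reflect this choice, and how much was not tested. The differences of the 34 ribosomal protein genes ran from -0.27 to 0.16 at 6 h, from -0.31 to 0.11 at 12 h and from -0.29 to 0.13 at 24 h. The interquartile range of these differences was 0.12, 0.11 and 0.13, and that of the other bright genes was 0.41, 0.45 and 0.52. Over all 51 members it was 0.19, 0.16 and 0.18, and over all named genes 0.50, 0.56 and 0.54. Of the 34 bright genes 30 were read by a probe set with a suffix that marks possible matches to several transcripts. Without such probe sets the interquartile range over the 28 members left was 0.33, 0.35 and 0.41. These spreads are over genes of single arrays and describe those arrays, with no test of the difference between the sets.

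**Figure D2:**
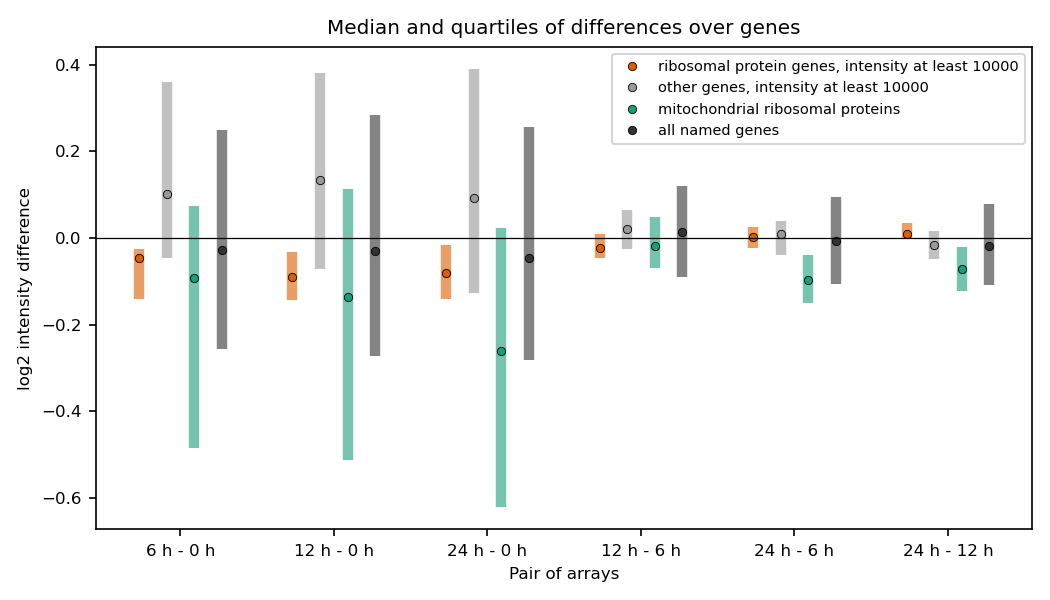
Median (point) and quartiles (bar) of log2 intensity differences over genes, for each pair of arrays, in 34 ribosomal protein genes and 89 other genes with a mean intensity of at least 10000, 76 mitochondrial ribosomal protein genes and all 18193 named genes. In every pair that holds the 0 h array, the bars of the bright ribosomal protein genes are the shortest and the mitochondrial ones reach furthest below 0.

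The 3 insulin arrays were closer still to each other. None of the 51 members differed by 1.5-fold between any pair of them in either direction. Of all named genes 0.896% were higher and 0.308% lower on the 12 h array relative to 6 h. For 24 h relative to 6 h these shares were 1.28% and 0.159%, and relative to 12 h they were 0.132% and 0.143%. Of the 89 other bright genes 0% differed by as much. The family medians were -0.01, 0.00 and 0.00. Among the 34 bright genes the largest gap was 0.10, for Rps3 at 12 h against 6 h. Among all members it was 0.36, for Rpl37 at 24 h against 6 h. A count of 0 of 51 is close to what these low shares give, and nothing particular to the family is read from it.

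Both subunits gave similar values. The median difference of the 21 small-subunit genes was -0.04, -0.11 and -0.07 at 6, 12 and 24 h, and that of the 22 large-subunit genes was -0.07, -0.09 and -0.09. For the 17 bright genes of each it was -0.06, -0.11 and -0.07 in the small and -0.05, -0.09 and -0.09 in the large subunit.

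Within the small subunit, Rps3a1, which sits near the mRNA exit, was among the lowest, at 21381, 18353, 17507 and 18463. Its differences were -0.22, -0.29 and -0.21, with every insulin array under the control. Rps18, a protein of the subunit head, was at 20230.1, 17132, 16851 and 16605, or -0.24, -0.26 and -0.28. Rps9, which helps keep decoding accurate in yeast, was at 12686, 10991, 10790.4 and 11000, or -0.21, -0.23 and -0.21. Its 2 other probe sets were dim, with means of 78.3 and 257, and not below 0 at all 3 times.

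Most of the 21 small-subunit genes lay below the control, 17, 16 and 17 of them at 6, 12 and 24 h. Rps19 and Rps20 were among the exceptions at 12 and 24 h. Rps19, the gene most often mutated in the human anaemia named after Diamond and Blackfan, was at 14892, 15318, 15512 and 15387, so every insulin array was higher, by 0.04, 0.06 and 0.05. Rpsa, also known as the laminin receptor, was at 18381, 18025, 18542 and 18363, and the control lay inside the range of the insulin arrays. Rps3, which also takes part in DNA repair, was at 14827, 14725, 13783 and 13863, with the 6 h array near the control and the later arrays lower. Rps20 was at 19474, 19309.8, 20044 and 20192, and its probe sets differed in sign.

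Rps6 is the ribosomal protein that the S6 kinases phosphorylate downstream of insulin and mTOR. Its single-symbol probe set read 887, 1085, 1112 and 1150.1 at 0, 6, 12 and 24 h, so each insulin array was above the control, by 0.29, 0.33 and 0.37, and none reached 1.5-fold. Rps25, which is needed for translation from some viral internal entry sites, was at 749, 1039.9, 1021 and 982 on its single-symbol probe set. Its differences of 0.47, 0.45 and 0.39 were the largest positive ones among the ribosomal protein genes as read here. Both genes were read by probe sets far dimmer than the several-gene probe sets of these symbols, whose brightest means were 22197 and 13301. Those brightest probe sets are among 72 several-gene probe sets of the family with a mean of at least 10000. Over these 72 the highest difference was 0.08, 0.10 and 0.10 at 6, 12 and 24 h. The higher values of Rps6 and Rps25 therefore hold for their dim probe sets and not for these brighter ones.

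In the large subunit the stalk proteins, which recruit translation factors, differed little. Rplp0, the stalk base and a common reference gene, was at 18391, 16944, 16979.6 and 16960.2, so the 3 insulin arrays were nearly equal, with a difference of -0.12 on each. Rplp2 was at 17598, 17987, 18542 and 18478, with all insulin arrays above the control by 0.03, 0.08 and 0.07. The difference of Rplp0 was below the family median at each time, and that of Rplp2 above it.

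Rpl11, which can hold the p53 regulator Mdm2 when ribosome assembly fails, was at 13398, 14578, 13759.9 and 13748, with the 6 h array highest and differences of 0.12, 0.04 and 0.04. Rpl13a, which is known in human cells for silencing inflammatory mRNAs once released from the ribosome, was at 17379.9, 16819.5, 16813 and 17175, or -0.05, -0.05 and -0.02. Rpl37a was higher on each insulin array, by 0.16, 0.11 and 0.13, the most among the bright genes. Rpl8, a core protein of the peptidyl transferase region, was lowest among them at 16172, 13453, 13038 and 13264, or -0.27, -0.31 and -0.29.

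Rpl37, a zinc-binding protein near the exit tunnel, was the ribosomal protein gene furthest below the control on its single-symbol probe set. It was at 3677, 1913, 2303 and 2458, so each insulin array was lower, by 1.92-fold, 1.60-fold and 1.496-fold, with the 6 h array lowest. A probe set that names Rpl37 with other genes had a mean of 18998. Over the 72 several-gene probe sets of the family with a mean of at least 10000, which include it, the lowest difference was -0.50, -0.52 and -0.49. The 1.5-fold lower values of Rpl37 therefore hold for its single-symbol probe set and not for that brighter one. Rpl12, a protein at the stalk base, was at 326, 266, 259 and 222, or -0.30, -0.33 and -0.56, on a dim probe set.

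**Figure D3:**
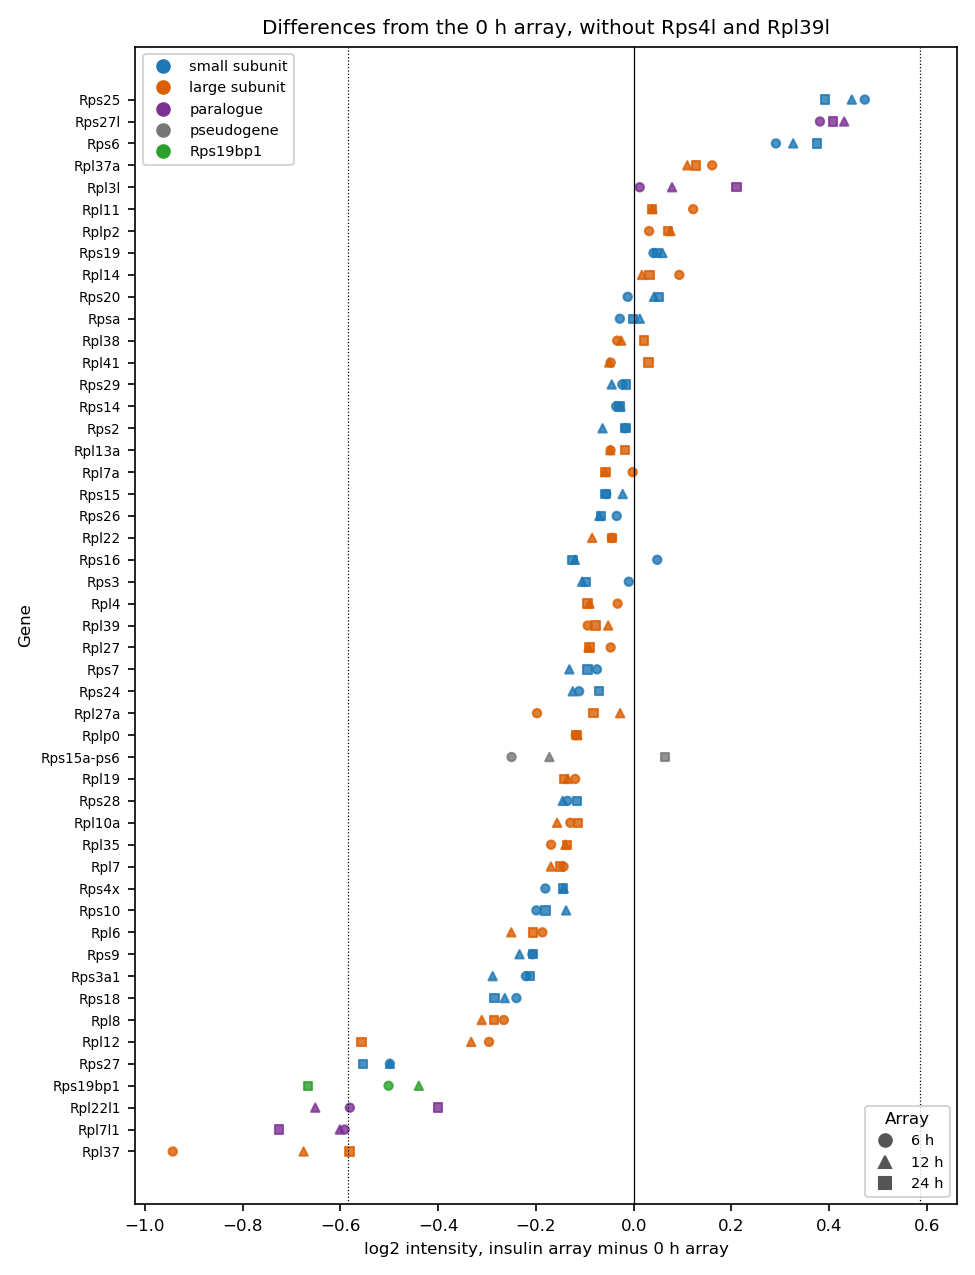
Log2 intensity on the 6, 12 and 24 h insulin arrays minus the 0 h array for 49 members, sorted by their mean difference and coloured by class, with dotted lines at 1.5-fold. Most ribosomal protein genes lie just left of 0, the paralogues Rpl7l1 and Rpl22l1 and Rpl37 lie at the left end, and Rps25, Rps27l and Rps6 lie at the right end. Rps4l and Rpl39l are left out because they exceed the axis.

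The largest differences of the family were those of paralogues. Rps4l, an autosomal relative of the X-linked small-subunit gene Rps4x, was at 20.5 at 0 h and at 2407, 2422 and 2225 at 6, 12 and 24 h. All 3 insulin arrays were alike, and the control lay below the median probe set intensity. The log2 differences were 6.88, 6.89 and 6.76, but 20.5 lies at background, so their exact size is not measured. Against the median probe set intensity of 65.3 in place of the control, the lowest insulin value was 34.1-fold higher. Rps4x itself was at 20695, 18259.7, 18742 and 18718, and each insulin array lay under the control, with differences of -0.18, -0.14 and -0.14.

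Rpl39l, the testis-enriched relative of Rpl39, was at 32.0, 1945, 1873 and 1803. Again the control was below the median probe set intensity and the 3 insulin arrays lay together, with differences of 5.92, 5.87 and 5.81 whose exact size is likewise not measured. Against the median probe set intensity the lowest insulin value was 27.6-fold higher. Rpl39, a small protein of the exit tunnel, was at 193, 180.5, 186 and 182 on its single-symbol probe set, and a probe set naming it with other genes had a mean of 20543.

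Each of these paralogues had 1 probe set, so no second reading of the gene was available on the array. Of the 8 nearest named genes around Rps4l in RefSeq order, chosen after the values were seen, its neighbour Tmtc1 was also low at 0 h, at 69.4 against 355, 440.4 and 410.4 on the insulin arrays. Ipo8, on the other side, was at 552, 513, 503 and 542 and did not follow. Ergic2 and Sinhcaf, also among the 8, went the opposite way. Ergic2 was at 1097, 945, 776 and 721, and Sinhcaf at 121, 77.8, 79.0 and 76.7. Around Rpl39l the neighbouring gene that differed most was 1810013L24Rik, at 682 and 925, 1012 and 1039, a difference of 0.61 at 24 h. On chromosome 6, which holds Rps4l, the median mean difference of the other genes was -0.07. On chromosome 16, which holds Rpl39l, it was 0.09. Over the 15 chromosomes that hold 1 or more of the 43 ribosomal protein genes, which include neither, it ran from -0.21 to 0.34.

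Rpl22l1, whose mRNA Rpl22 represses in mouse cells, was at 9826, 6571, 6257 and 7443. Every insulin array was lower, with differences of -0.58, -0.65 and -0.40, and the 12 h array alone passed 1.5-fold. Rpl22 was at 14393, 13958, 13570.5 and 13959, and its probe sets differed in sign. Rps27l, known as a p53 target in human cells, was at 6725, 8757, 9064 and 8918, above the control by 0.38, 0.43 and 0.41. Its 3 probe sets all lay above the control, with mean differences from 0.41 to 0.57. Rps27 went the other way on its dim probe set, at 381, 269.95, 269.95 and 259.97, or -0.50, -0.50 and -0.55.

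Rpl7l1, a relative of Rpl7 found in the nucleolus, was at 1769.9, 1175, 1167 and 1070.0, or -0.59, -0.60 and -0.73. Another probe set of the same symbol gave 1714, 1133, 1009 and 911, and the third gave 38.2, 241, 229.7 and 198, in the opposite direction. The lower values therefore hold for the 2 brighter probe sets and not for the third. Rpl7 was at 15852, 14351, 14097 and 14276, or -0.14, -0.17 and -0.15. Rpl3l, the striated muscle form of Rpl3, was at 15.1, 15.3, 15.99 and 17.5, at background on all 4 arrays. Rps19bp1 was at 1171, 827, 863 and 738, or -0.50, -0.44 and -0.67, and the pseudogene Rps15a-ps6 was at 17.4, 14.6, 15.4 and 18.2.

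**Figure D4:**
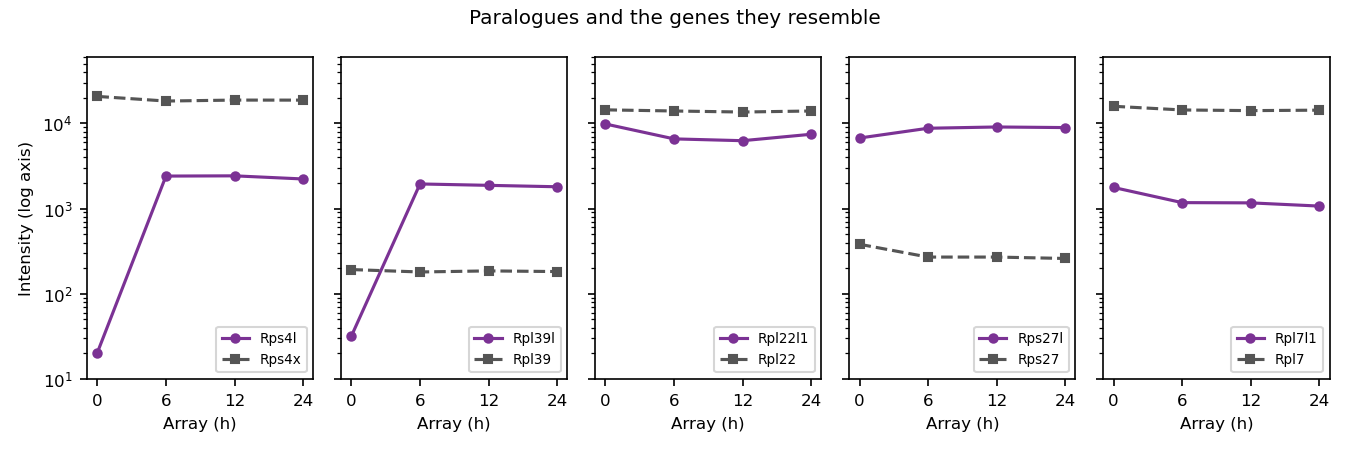
Intensity (log axis) of 5 paralogues (solid line, circles) and the genes they resemble (dashed line, squares) on the arrays at 0, 6, 12 and 24 h. Rps4l and Rpl39l are the 2 lines that leave the background between 0 and 6 h, whereas Rps4x and Rpl39 run flat.

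The promoters are shown because the TOP tract, which the choice of members did not use, begins at the transcript start. RefSeq, on GRCm38.p6, held the windows of 38 of the 43 ribosomal protein genes, from 250 bases before the start to the 50 bases after. A start at C followed by at least 4 further pyrimidines was found in 8 of the 38 (21.1%), in 3.01% of 27025 genes and in 6.85% of 73 other bright genes. Within 5 bases of the annotated start it was found in 18 of the 38 (47.4%), in 21.2% of all genes and in 30.1% of the other bright genes. The following windows of 51 bases have the start at base 26, and capitals mark the pyrimidines that run on from it. Rps6 and Rps27 hold a long tract at the start. Rps27l, the relative of Rps27, has none at the annotated base but has one within 5 bases of it.
Rps6, chr4:86857342-86857392, minus strand: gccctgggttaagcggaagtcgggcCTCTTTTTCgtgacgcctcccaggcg
Rps27, chr3:90213623-90213673, minus strand: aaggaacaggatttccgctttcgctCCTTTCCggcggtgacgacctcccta
Rps27l, chr9:66946061-66946111, plus strand: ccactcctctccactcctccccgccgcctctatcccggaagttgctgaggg
Rps4x, chrX:102189366-102189416, minus strand: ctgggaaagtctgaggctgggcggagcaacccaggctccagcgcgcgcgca

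The Rps4x window shows that an annotated start need not fall on a tract, even in a bright ribosomal protein gene. Motifs were searched on both strands of the 300 bases. CCGGAAG, a core recognised by ETS-family factors, was in 19 of the 38 promoters (50%), in 9.93% of all genes and in 12.3% of the other bright genes. In 44 windows of these genes there were 21 matches, centred at a median of 53 bases before the start, and none overlapped another motif searched. CTTTCC was in 19 (50%), 29.3% and 27.4%, TATAAA in 5 (13.2%), 15.7% and 20.5%, and CACGTG in 4 (10.5%), 8.09% and 13.7%. Of the 5 paralogues with a promoter, Rpl39l and Rps27l held CCGGAAG. The promoters of Rpl39l and Rpl39 are given whole, since the first gene was at background at 0 h and the second was not, with capitals at CCGGAAG or its reverse complement.
Rpl39l, chr16:10169978-10170277, plus strand: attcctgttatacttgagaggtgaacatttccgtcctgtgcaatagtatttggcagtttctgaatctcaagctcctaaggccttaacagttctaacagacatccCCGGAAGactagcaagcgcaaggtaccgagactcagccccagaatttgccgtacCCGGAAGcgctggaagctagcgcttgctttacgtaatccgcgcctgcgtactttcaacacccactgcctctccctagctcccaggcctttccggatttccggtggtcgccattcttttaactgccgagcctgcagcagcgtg
Rpl39, chrX:37085173-37085472, minus strand: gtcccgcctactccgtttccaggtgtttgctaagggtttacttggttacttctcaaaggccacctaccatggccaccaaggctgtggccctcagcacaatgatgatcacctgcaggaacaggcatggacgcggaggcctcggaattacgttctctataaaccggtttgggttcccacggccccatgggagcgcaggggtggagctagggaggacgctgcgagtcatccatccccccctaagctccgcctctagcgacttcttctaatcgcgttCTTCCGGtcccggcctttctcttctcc

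Rpl39l has 2 matches, both before its start, and Rpl39 has 1 after its start. A match describes these letters in these windows and is not a site of binding.

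Several probe sets of a gene gave a second view of the family. Of the 24 members with more than 1 single-symbol probe set, 4 (Rpl22, Rpl7l1, Rps20 and Rps9) had probe sets that differed in sign, and in Rpl7l1 alone they lay over 1.5-fold apart. Over the 58 probe sets of ribosomal protein genes with a mean of at least 10000, the median difference was -0.12, -0.12 and -0.10 at 6, 12 and 24 h. The 27 from the median probe set intensity to 10000 gave -0.18, -0.22 and -0.16. The dimmer probe sets of Rps10 and Rps24 lay lower than their brightest ones, with gaps of up to 0.52 and 0.53 between probe sets. The 110 probe sets that name a member together with other genes, which were not used for the members, gave medians of -0.13, -0.12 and -0.10. None of them was at least 1.5-fold higher, and 4, 5 and 4 (3.64%, 4.55% and 3.64%) were lower at 6, 12 and 24 h. Of all named genes, each read by 1 probe set, 13.2%, 14.8% and 14.0% were higher and 9.36%, 9.97% and 9.90% lower. The share over all probe sets was not computed.

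Other genes of translation were set beside the family. The lists follow gene symbols and include regulators, such as the kinase Eef2k, which inhibits Eef2, among the elongation factor genes and the repressors Eif4ebp1 and Eif4ebp2 among the initiation factor genes. Over all named genes 11.9% were at least 1.5-fold higher and 7.58% lower at all 3 times, and the counts of each list are to be read against these shares. Of 7 genes in the elongation factor list none differed by 1.5-fold at all 3 times, and their median was -0.01, 0.00 and 0.01. Eef1a1, which brings aminoacyl-tRNA to the ribosome, was at 24277, 24374, 24352 and 24492. Eef2, which drives translocation, was at 12347, 12141, 12541 and 12427. Both were flat at a brightness like that of the ribosomal protein genes.

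The 76 mitochondrial ribosomal protein genes, which serve the separate ribosome of mitochondria, lay lower. At all 3 times 14 were at least 1.5-fold lower and 1 was higher, beside 7.58% and 11.9% of all named genes, and their median was -0.09, -0.14 and -0.26. Mrpl16 was at 2399, 1109, 1122 and 1050.5, with each insulin array under the control. Mrps18a was at 1815, 978, 932 and 868, and Mrpl47 was at 1206, 583, 547 and 568. Mrps6 was at 5309, 2729.7, 2812 and 2957.

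The initiation factor list spread both ways. Of 47 genes 5 were higher and 8 lower at all 3 times, beside 11.9% and 7.58% of all named genes, with medians of -0.02, 0.02 and -0.05. The 5 include the Y-linked Eif2s3y, whose values were given above among the signs that the 0 h array stood apart. Eif4g3, a scaffold of the cap-binding complex, was at 162, 903, 1013 and 1028. Eif4e, the cap-binding protein itself, was at 4747, 2943, 2345 and 2243, lower on each insulin array. Eif2ak2, a kinase that blocks initiation, was at 1222, 624, 519.7 and 514.

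Among 16 other mRNAs known for a TOP tract, 3 were at least 1.5-fold lower at all 3 times and none was higher, beside 7.58% and 11.9% of all named genes, with medians of -0.13, -0.22 and -0.19. The 3 were Eif3h, Eif4b, which aids the initiation helicase, and Hnrnpa1, an RNA-binding protein. The lists overlap, so their results are not separate observations. Eif3h and Eif4b are also counted among the lower initiation factors, and Eef1a1, Eef1b2, Eef1d and Eef2 are also in the elongation factor list. Eif4b was at 6609, 3169, 2999.5 and 3293.9, and Hnrnpa1 was at 2653, 1105, 997 and 1190.3. Tpt1, a growth-related protein also in this list, was flat at 25666, 24885, 25111 and 25148. Of the ribosomal proteins outside the symbol rule Fau, whose product yields the small-subunit protein eS30, was at 12708, 11326, 10985 and 11016. Fau is also among the 16.

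Of 20 genes that signal growth to the ribosome, 1 was higher and 2 were lower at all 3 times, beside 11.9% and 7.58% of all named genes, with medians of -0.17, -0.21 and -0.30. Nothing particular to this list is read from counts so small. Mtor, the kinase at the centre of this control, was at 304, 468, 520.4 and 518. Tsc1, part of the complex that restrains it, was at 481, 318, 303 and 310.3. Eif4e, described above, was the other that was lower.

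Signs of RNA quality shifted between the arrays. The ratio of 3′ to 5′ intensity was 0.897, 0.964, 0.995 and 1.03 for the Gapdh controls at 0, 6, 12 and 24 h, and 1.30, 1.26, 1.41 and 1.39 for beta-actin. Controls for 18S ribosomal RNA were highest at 24 h. The 3′ control read 255, 233, 265 and 295, the middle one 136, 127, 153 and 171, and the 5′ one 93.8, 89.1, 96.2 and 119.6. The part of these shifts in the family's differences was not tested.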

How the data were processed

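Total RNA was labelled by 3′ in vitro transcription and measured on Affymetrix arrays, 1 for each of 4 groups, per the labels' protocols. The deposited table holds linear intensity values, 1 for each probe set on each array, which the authors made with RMA, per the submitters' processing notes. RMA corrects background, normalizes arrays and summarises probes on the log scale. It compresses the differences of dim probe sets. Neither software nor version is given in the sources used here, and the build is likewise not given in those sources.

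Log2 was taken with no further normalization. Of 45101 probe sets 64 were controls, and 34945 had 1 symbol in the platform annotation, which can be old. The members, the lists and the alternatives were chosen with earlier results of these data known. Differences, medians, interquartile ranges and counts were computed with Python 3.11.15, numpy 2.4.6 and pandas 2.3.3, tested on simulated data, and plotted with matplotlib 3.10.9. Statsmodels 0.14.6 gave the loess correction, with a span of 0.3. The number of arrays limits the precision, and 1 per group allows no test.

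The text names every member of a paralogue pair, the 10 members with the largest positive and the 10 with the largest negative mean difference, the 6 brightest, the 6 dimmest, the 5 with the largest range over insulin arrays, members of known role, and up to 6 members of each list past 1.5-fold at all 3 times. The lists were elongation factors, initiation factors, mitochondrial ribosomal proteins, other TOP mRNAs, ribosomal proteins outside the rule, growth signalling and markers of 5 cell types. Alternatives were other fold thresholds, brightness filters, probe set choices, normalizations and reference arrays. Promoter sequences are from RefSeq, GRCm38.p6.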

Additional observations from a re-analysis of the deposited data

How the results depend on the processing

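The family median stayed below 0 under every alternative run, from -0.11 to -0.01 at 6 h, from -0.12 to -0.06 at 12 h and from -0.12 to -0.03 at 24 h. Counts under the alternatives are of members alone. Shares of all named genes were not computed under other thresholds, probe set choices, normalizations or corrections. Whether those counts are few or many for the arrays is therefore not judged. At a threshold of 0.32 log2 4, 5 and 5 members were higher and 5, 6 and 6 lower at 6, 12 and 24 h, and 1 was higher at 24 h than at 6 h. At 2-fold 0, 0 and 0 were lower. With the mean of a gene's probe sets 1 was lower at 6 h and 1 at 24 h, and Rpl7l1 changed sign to 0.49, 0.41 and 0.25, since 1 of its probe sets points the other way. Without suffixed probe sets, which can match several transcripts, the interquartile range was 0.33, 0.35 and 0.41 over 28 members and 4 were lower at 24 h, and the cause was not tested. Quantile normalization gave 5 lower at 24 h, a loess correction 1 lower at 6 h, and removal of chromosome medians 1, 0 and 0 lower. Without paralogues, pseudogene and Rps19bp1 0, 0 and 0 were higher and 1, 1 and 0 lower. For mean intensities of at least 10000, an alternative chosen after seeing the data, 0, 0 and 0 were higher and 0, 0 and 0 lower, and the interquartile range at 6 h was 0.12. The median of the initiation factors changed sign between alternatives at 6 and 12 h. With the 6, 12 or 24 h array as the reference the interquartile range of the mean difference of the others was 0.071, 0.078 and 0.064. Each time 0 members were higher and 0 lower on all 3 others. With the 0 h array as the reference these values were 0.15, 2 and 1. The counts of 0 were fixed in advance, since no member differed by 1.5-fold between any pair of insulin arrays. The smaller ranges average 1 difference from the 0 h array with 2 between insulin arrays, so nothing is read from this contrast. No paired analysis was possible because each group has 1 array. For the same reason no replicate could be left out. Signal over background limits Rps16, Rpl3l and Rps15a-ps6 on all arrays, and Rps4l and Rpl39l at 0 h.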
